A study of Homo sapiens with 8 samples.

Results

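CDK4, the kinase that pairs with D-type cyclins, lies with 9 listed neighbours in a run of 124.6 kb on chromosome 12 of hg38. The genes are OS9, AGAP2, TSPAN31, CDK4, MARCHF9, CYP27B1, METTL1, EEF1AKMT3, TSFM and AVIL, 10 of 20037 protein-coding genes in RefSeq. Peaks of NF-Y, a factor that binds CCAAT boxes, were examined at these genes and in the surrounding block, which begins at 57 Mb, is 1.5 Mb long and holds 39 protein-coding genes. The region was chosen by the measured peak calls themselves: the density of peaks in the block, RH4 against RH30 and control against edited cells. Those values are therefore given as descriptions, without tests. A gene counted as having a peak when any part of that peak came within 1000 bp of its first or last base.

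Binding was measured by CUT&RUN, which cuts out the DNA next to an antibody-marked protein. RH4 and RH30 are established rhabdomyosarcoma lines, and all libraries carry the genotype label PAX3-FOXO1+. RH4 cells were uninfected and untreated, with 1 library each for the NFYB and the NFYC subunit. RH30 cells held a cytosine base editor that rapamycin switches on (seBE in the titles, a term the labels do not explain). After a guide RNA and blasticidin selection they were taken at day 8 of rapamycin, with 1 NFYB library per guide. The guides were the controls sgCtrl1 and sgCtrl2, and sgCCAAT2a and sgCCAAT2b, aimed at a CCAAT motif of the PAX3 promoter. Libraries of the last 2 are called edited, although editing itself was not analysed here. RH4 stands as both source name and cell line for the libraries titled RH30, which are named here by their titles; every comparison of RH4 with RH30 rests on those titles. Each of the 6 libraries is a group of its own, so there is no replicate, intervals cover counting error only, and conditions are compared by their values alone. The 2 IgG libraries were not analysed here, and peak positions do not allow a check of the cell type.

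NF-Y consists of the subunits NFYA, NFYB and NFYC and binds the CCAAT box in promoters, usually a short way upstream of the transcription start. CDK4 with a D-type cyclin phosphorylates the retinoblastoma protein RB and so releases E2F factors that drive entry into S phase. The chromosome segment around CDK4 is recurrently amplified in fusion-positive rhabdomyosarcoma and other sarcomas. DNA copy number was not analysed here, and its part in the results was not tested.

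The peak lists gave 3 of the 10 genes a peak, all at the annotated 5' end: OS9 in 6 of 6 lists, TSPAN31 in 5 and CDK4 in 3. Over all protein-coding genes 1409 (7.03%) had a peak in 6 of 6 lists, as OS9 did. The sequences upstream of these 3 genes are shown because the lists part at this point. AVIL is added as a gene with a motif and no peak. Each line gives the 250 bases that end just before the annotated start, along the gene, from RefSeq (GRCh38.p14), with CCAAT or its reverse complement ATTGG in capitals. OS9 is on the plus strand (chr12:57693882-57694131), TSPAN31 on the plus strand (chr12:57744789-57745038), CDK4 on the minus strand (chr12:57752311-57752560) and AVIL on the minus strand (chr12:57818735-57818984).
OS9: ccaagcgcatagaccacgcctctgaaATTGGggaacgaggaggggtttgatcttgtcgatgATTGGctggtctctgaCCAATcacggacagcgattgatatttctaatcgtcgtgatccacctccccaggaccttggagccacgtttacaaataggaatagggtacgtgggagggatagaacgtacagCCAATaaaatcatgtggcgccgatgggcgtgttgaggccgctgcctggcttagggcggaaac
TSPAN31: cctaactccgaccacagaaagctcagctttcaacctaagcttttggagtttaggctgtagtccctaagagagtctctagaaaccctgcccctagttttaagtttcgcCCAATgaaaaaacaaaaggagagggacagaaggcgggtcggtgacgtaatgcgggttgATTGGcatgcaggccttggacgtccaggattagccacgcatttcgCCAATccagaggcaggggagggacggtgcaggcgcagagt
CDK4: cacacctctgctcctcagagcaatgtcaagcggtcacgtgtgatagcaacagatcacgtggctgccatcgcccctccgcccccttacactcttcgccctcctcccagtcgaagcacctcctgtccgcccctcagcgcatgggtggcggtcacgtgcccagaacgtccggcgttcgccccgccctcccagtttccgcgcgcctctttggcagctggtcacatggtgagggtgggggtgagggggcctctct
AVIL: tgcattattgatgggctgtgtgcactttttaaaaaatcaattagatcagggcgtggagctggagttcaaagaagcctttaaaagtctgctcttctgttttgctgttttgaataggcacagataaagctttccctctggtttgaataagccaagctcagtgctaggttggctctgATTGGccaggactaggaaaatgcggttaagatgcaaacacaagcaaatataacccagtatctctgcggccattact

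The promoter of OS9 held 4 matches and that of TSPAN31 held 4, of which 1 begins at the annotated start itself and so follows the printed bases. Searched were the 250 bases before and 50 bases after the start, for CCAAT on both strands. CCAAT and ATTGG can share 2 bases and were counted separately. Of 22199 such windows of protein-coding genes, 34.7% held at least 1 match and 1.13% held 4 or more. Among windows with a peak centre inside, the share with a match ran from 81.6% with sgCtrl2 to 97.2% with sgCCAAT2b, and the share with 4 or more from 7.14% in the RH4 NFYC and sgCtrl2 lists to 12.3% with sgCCAAT2b. AVIL held 1 match, 76 bp before its start, and no peak in any list. CDK4, AGAP2, MARCHF9 and TSFM held none in these windows, which says only that these letters are not there. The window covers the CDK4 peaks of the RH30 controls only in part: 84 bp of the sgCtrl1 peak and 103 bp of the sgCtrl2 peak lie inside the printed bases.

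OS9, a lectin of the endoplasmic reticulum that delivers misfolded glycoproteins to degradation, carried an NF-Y peak in every list. The gene spans 57694132 to 57721557. In RH4 the NFYB peak covered 57693766 to 57694225 and the NFYC peak 57693813 to 57694137. The controls covered 57693871 to 57694059 (sgCtrl1) and 57693859 to 57694055 (sgCtrl2). The edited libraries covered 57693888 to 57694040 (sgCCAAT2a) and 57693893 to 57694055 (sgCCAAT2b). All 6 peaks shared 148 bp, and their centres lay at -175 to -136.5 bp from the start, where negative is upstream. In RH30 the 4 centres fell within 17 bp of each other and within 4 bp, 4 bp, 3 bp and 13 bp of the CCAAT that begins 173 bp upstream. That motif stands 16 bp from the ATTGG before it.

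The OS9 peak also stood at the head of the RH30 files. It was entry 2 of 4025 with sgCtrl1, entry 51 of 6687 with sgCtrl2, entry 3 of 2451 with sgCCAAT2a and entry 4 of 2558 with sgCCAAT2b, and in each file its name numbers it as the first peak of chromosome 12. The deposited entries hold no peak heights, and nothing in the headers says that place in the file is a rank. The authors' deposited tables did not list the OS9 peak as higher in sgCtrl2 than in sgCtrl1, sgCCAAT2a or sgCCAAT2b. The control and edited lists thus did not part at OS9. A further peak inside the gene, at 57700459 to 57700647, was called with sgCtrl1 at place 2840 and in no other list.

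TSPAN31, a tetraspanin first described as a sarcoma-amplified sequence, carried a peak in all 5 NFYB lists and not in the RH4 NFYC list. The gene spans 57745039 to 57750219 and overlaps CDK4, which runs the other way, by 2493 bp. In RH4 NFYB covered 57744926 to 57745173. The controls covered 57744874 to 57745062 (sgCtrl1) and 57744896 to 57745092 (sgCtrl2), and the edited libraries 57744872 to 57745024 (sgCCAAT2a) and 57744894 to 57745056 (sgCCAAT2b). These peaks shared 99 bp. The 4 RH30 centres lay at -91 to -45 bp from the start, and the RH4 centre at 10.5 bp. The ATTGG that begins 85 bp upstream and the CCAAT that begins 40 bp upstream lay inside all 5 peaks. The nearest RH4 NFYC peak was 50.9 kb away. Its file places in RH30 were 493, 998, 574 and 472 in the order given, and the authors' deposited tables listed it in none of the 3 comparisons.

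CDK4 had a peak in the 3 unedited NFYB lists and in neither edited list nor the RH4 NFYC list. The gene spans 57747727 to 57752310, and is read from the higher coordinate to the lower. The peak covered 57752307 to 57752668 in RH4, 57752477 to 57752665 (sgCtrl1) and 57752458 to 57752654 (sgCtrl2). These share 178 bp, and the centres lay at -177.5, -261 and -246 bp from the start. With sgCCAAT2a and sgCCAAT2b the nearest peak to the CDK4 start was the TSPAN31 peak, whose centre was 7362 and 7335 bp away. The authors' deposited tables listed the CDK4 peak of sgCtrl2 over each edited library but not over sgCtrl1. Over the whole sgCtrl2 list, the authors' deposited tables held 61.9%, 60.7% and 36.2% of peaks in these comparisons.

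**Figure D1:**
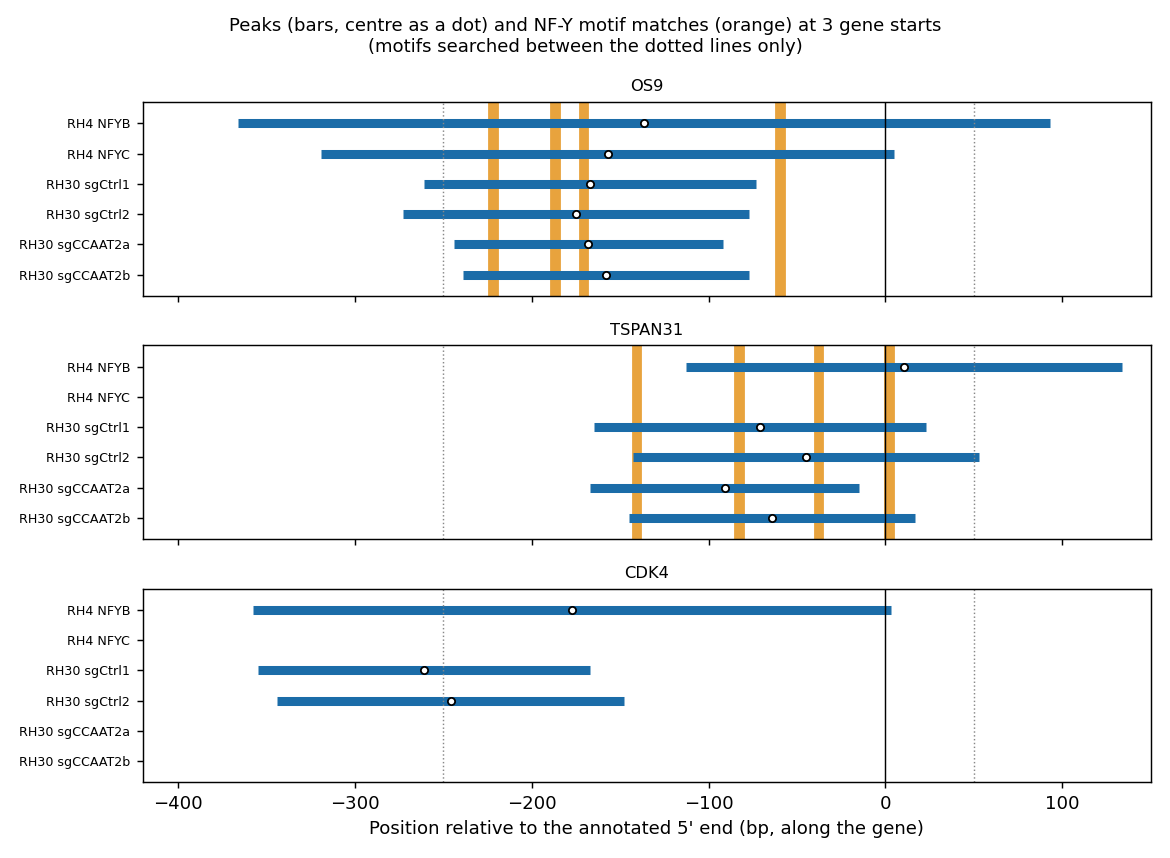
Peaks at the starts of OS9, TSPAN31 and CDK4 in the 6 lists, by position in bp relative to the annotated 5' end along the gene; bars are peaks, dots their centres, orange bands matches to the NF-Y motif, and dotted lines bound the 300 bp searched. OS9 peaks lie over a cluster of matches in every list, TSPAN31 peaks lie closer to the start, and CDK4 peaks, present in 3 lists, extend beyond the searched window.

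The pattern of CDK4, a peak in both controls and in neither edited list, belongs to the values that chose the region and is given beside its background as a description. Of 2259 genes with a peak in both RH30 controls, 489 (21.6%) had none in either edited list. With a peak in RH4 NFYB required as well it was 364 of 2016 (18.1%), and 44 of these 2016 (2.18%) also lacked an RH4 NFYC peak, as CDK4 did. The CDK4 peak stood at place 199 of 6687 with sgCtrl2 and at place 266 of 4025 with sgCtrl1. Within 100 places of it in the sgCtrl2 file, 177 peaks overlapped an sgCtrl1 peak. Of these, 1 (0.565%) had no peak of either edited list within 1000 bp, the CDK4 peak itself. In the sgCtrl1 file it was 1 of 183 (0.546%), again that of CDK4. Within 250 places it was 2 of 400 (0.5%) in the sgCtrl2 file and 2 of 450 (0.444%) in the sgCtrl1 file, in each the CDK4 peak and 1 other. CDK4 belongs to each of these sets, so a count of at least 1 was fixed in advance. These shares count peaks, whereas those further above count genes. Place is not stated to be a rank, and the region was chosen on this pattern, so these shares are descriptions too.

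CTDSP2, a phosphatase of the RNA polymerase II tail and the next gene beyond AVIL, had a peak near its 5' end in 6 of 6 lists. It is no member of the list. Its places were 257 with sgCtrl2, 362 with sgCtrl1, 426 with sgCCAAT2a and 318 with sgCCAAT2b. The called positions differed among the RH30 lists. The sgCtrl2 peak covered 57846706 to 57846902 and the sgCtrl1 peak 57846949 to 57847137, so the controls did not overlap. The sgCCAAT2a peak, at 57846794 to 57846946, overlapped that of sgCtrl2, whereas the sgCCAAT2b peak, at 57846949 to 57847111, lay within that of sgCtrl1. The authors' deposited tables listed the sgCtrl2 peak of CTDSP2 over each edited library but not over sgCtrl1, as for CDK4, although the edited lists held peaks there.

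The remaining 7 genes had no peak in any of the 6 lists. AGAP2, a GTPase that enhances phosphoinositide kinase signalling, had its nearest peak 2.71 to 29.6 kb from a gene end, depending on the list. MARCHF9, a membrane-bound ubiquitin ligase, begins 2792 bp beyond the CDK4 start, and its nearest peak was 2.44 to 61.0 kb away. These genes are the nearest to the 1000 bp threshold from outside. From inside, the farthest peaks were those of CDK4 in the RH30 controls, at 148 and 167 bp, so no member lay close to the threshold. CYP27B1, which makes the active form of vitamin D, had no peak nearer than 9.67 kb. METTL1, a tRNA methyltransferase, had none nearer than 15.8 kb, and EEF1AKMT3, a lysine methyltransferase of an elongation factor, none nearer than 19.9 kb. The gap between METTL1 and EEF1AKMT3 is 508 bp and that between EEF1AKMT3 and TSFM is 245 bp, and none of these close pairs of gene ends held a peak. TSFM, a mitochondrial elongation factor, and AVIL, an actin-binding protein, overlap by 5477 bp and had their nearest peaks at least 30.1 and 28.0 kb away.

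**Figure D2:**
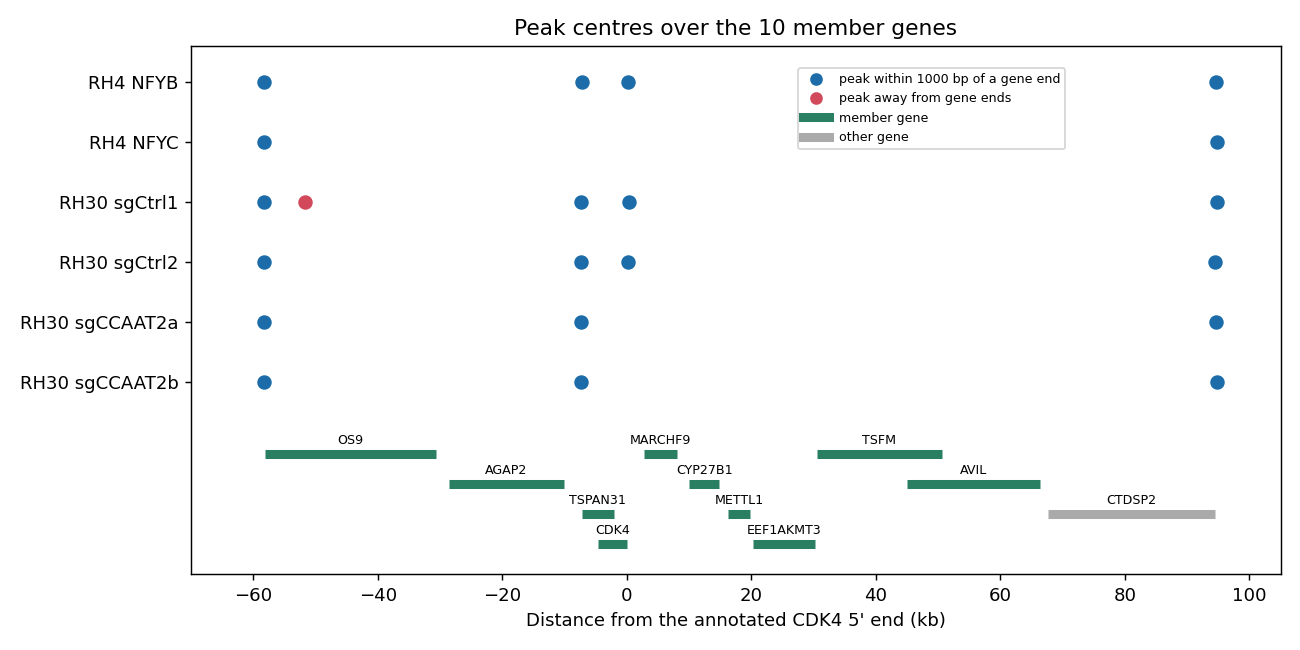
Centres of NF-Y peaks in the 6 lists over the 10 member genes (green) and CTDSP2 (grey), by distance in kb from the annotated CDK4 5' end. OS9 has a peak in 6 lists, TSPAN31 in 5 and CDK4 in 3, and no peak lies between MARCHF9 and AVIL.

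The count of genes with a peak was 3 of 10 in the RH4 NFYB, sgCtrl1 and sgCtrl2 lists, 2 of 10 with sgCCAAT2a and sgCCAAT2b, and 1 of 10 for RH4 NFYC. Over all protein-coding genes the share with a peak was 15% for RH4 NFYB, 15.3% for RH4 NFYC, 12.6% for sgCtrl1, 16.8% for sgCtrl2, 8.9% for sgCCAAT2a and 9.27% for sgCCAAT2b. With 10 genes, the exact interval of 3 of 10 runs from 6.67 to 65.2% and holds the share over all genes, as do those of 2 and 1 of 10. Widening the window to 3000 bp raised the count to 5 in the 3 unedited NFYB lists and to 4 in both edited lists. In the unedited lists AGAP2 then reaches the TSPAN31 peak and MARCHF9 the CDK4 peak. In the edited lists AGAP2 and CDK4 itself reach the TSPAN31 peak, so at 3000 bp CDK4 counts as having a peak there too.

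The block around these genes held more peaks in the RH30 control lists than in the RH4 lists. It held 6 peaks for RH4 NFYB, 5 for RH4 NFYC, 23 with sgCtrl1, 20 with sgCtrl2, 10 with sgCCAAT2a and 9 with sgCCAAT2b. Both RH30 controls thus held more peaks than any other list, and the edited lists lay between these and RH4. The lists differ in length, so the block was set against the 1.5 Mb on either side in the same list. The ratio of peaks per Mb was 3.83 with sgCtrl1 (95% exact interval 1.83 to 8.45) and 2.11 with sgCtrl2 (1.07 to 4.17). It was 1.54 with sgCCAAT2a (0.604 to 3.80) and 1.29 with sgCCAAT2b (0.491 to 3.19). In RH4 it was 0.8 for NFYB (0.254 to 2.18) and 0.625 for NFYC (0.179 to 1.79). In this comparison the controls stood above the edited lists and those above RH4. Under some other settings sgCtrl2 fell below both edited lists, and in some of these also below RH4 NFYB. In the settings given next sgCtrl1 stayed the highest. Against the rest of chromosome 12 the ratio was 10.9 with sgCtrl1, 5.87 with sgCtrl2, 6.92 with sgCCAAT2a and 5.99 with sgCCAAT2b. For the interval of the members against the flanks it was 5 with sgCtrl1, 2.11 with sgCtrl2, and 3.08 and 2.86 in the edited lists. In RH4 it was 2.67 for NFYB, above sgCtrl2, and 1.25 for NFYC. The flanks are unlike each other: the left holds 55 protein-coding genes and the right 3. The left flank held 15, 16, 12, 18, 13 and 14 peaks in the order RH4 NFYB, RH4 NFYC, sgCtrl1, sgCtrl2, sgCCAAT2a and sgCCAAT2b, and the right held 1 with sgCtrl2 and 0 in the other 5 lists. The excess over the flanks thus rests in part on the nearly empty right flank. Against the left flank alone the block had more peaks with sgCtrl1 (23 against 12), about as many with sgCtrl2 (20 against 18) and fewer in the other 4 lists.

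**Figure D3:**
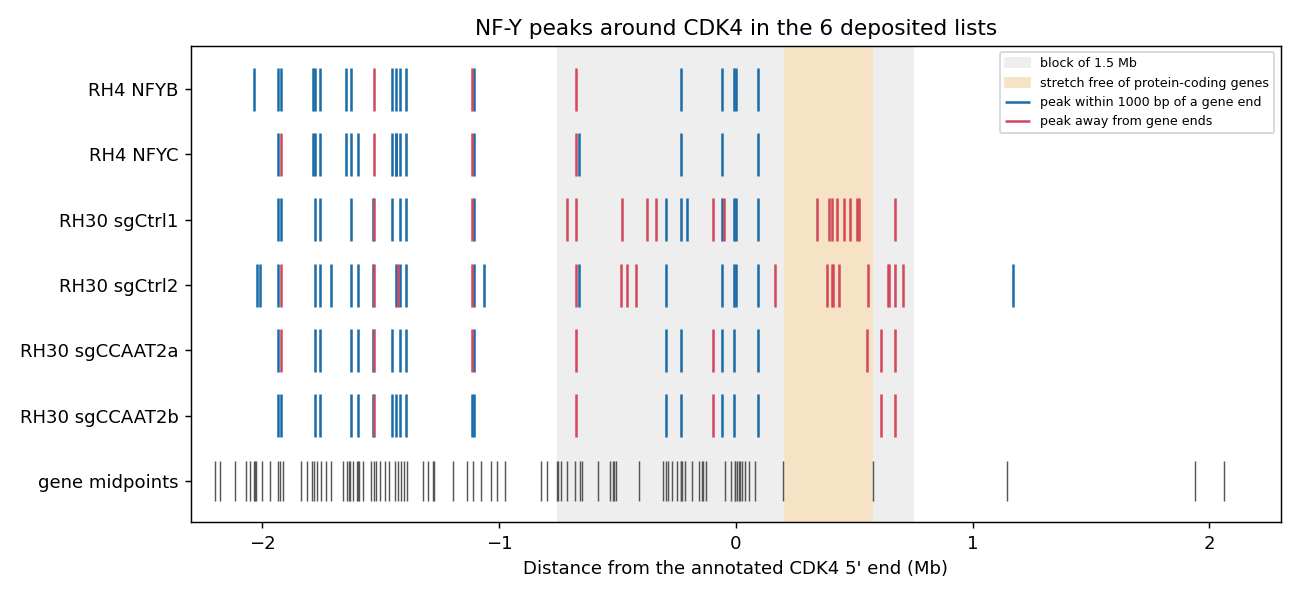
Peaks of the 6 lists by distance in Mb from the annotated CDK4 5' end, with peaks near gene ends in blue and other peaks in red; grey marks the block of 1.5 Mb, sand its longest stretch free of protein-coding genes, and the bottom row the midpoints of protein-coding genes. The RH30 control lists hold 8 and 5 peaks in that stretch, and the RH4 lists hold 0.

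Most of the block's peaks in the RH30 controls lay away from gene ends. Within 1000 bp of a gene end the block held 5, 4, 7, 6, 5 and 5 peaks in the order RH4 NFYB, RH4 NFYC, sgCtrl1, sgCtrl2, sgCCAAT2a and sgCCAAT2b. Away from gene ends it held 1, 1, 16, 14, 5 and 4. The share away from gene ends was 69.6% with sgCtrl1 (47.1 to 86.8%) and 70% with sgCtrl2 (45.7 to 88.1%), against 46.6% and 56.6% over the whole lists. It was 50% with sgCCAAT2a and 44.4% with sgCCAAT2b, against 39.4% and 40.1%. In RH4 it was 16.7% for NFYB and 20% for NFYC, against 22.8% and 26.3%. Per Mb, peaks away from gene ends numbered 10.7 in the block with sgCtrl1 (6.10 to 17.3) and 0.721 over chromosome 12. With sgCtrl2 these values were 9.33 (5.10 to 15.7) and 1.37. The edited lists also held more in the block, with 3.33 and 0.383 for sgCCAAT2a and 2.67 and 0.390 for sgCCAAT2b. For RH4 NFYB they were 0.667 (0.0169 to 3.71) and 0.30, and for RH4 NFYC 0.667 and 0.450. In the order of 2068 fixed windows of 1.5 Mb over the genome by such peaks, the block was window 1 with sgCtrl1 and 3 with sgCtrl2. It was 16 with sgCCAAT2a, 25 with sgCCAAT2b, 153 for RH4 NFYB and 220 for RH4 NFYC. Windows with the same count share a rank: 9 with sgCCAAT2a, 19 with sgCCAAT2b, 305 for RH4 NFYB and 316 for RH4 NFYC, the block included, so the RH4 ranks place it only among the windows with 1 such peak.

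**Figure D4:**
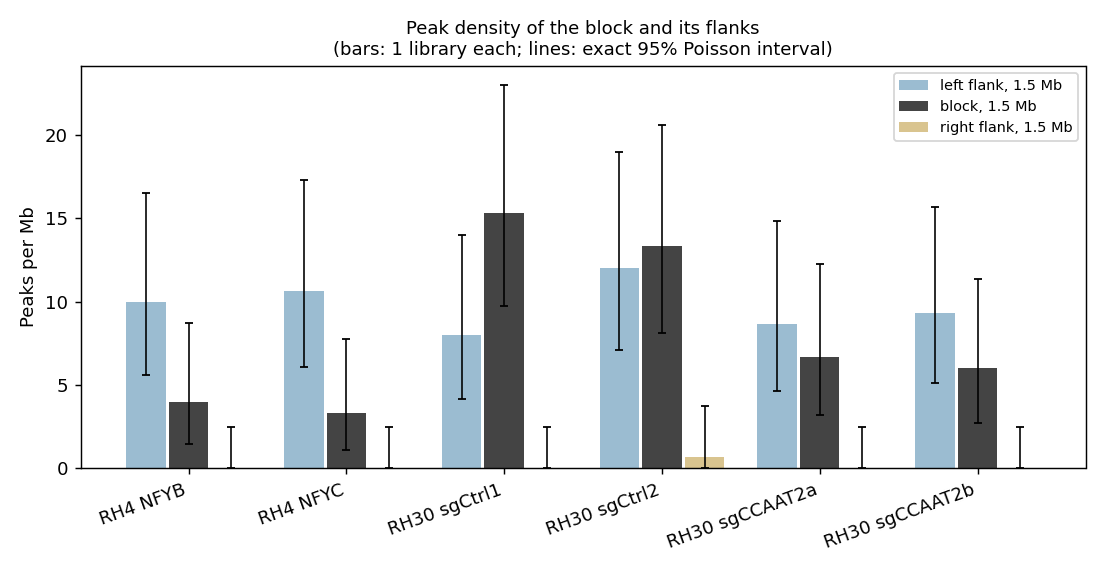
Peaks per Mb in the block (dark) and in the flank on either side (blue and sand), for each of the 6 lists; lines are exact 95% Poisson intervals, which cover counting error only. The block stands at 15.3 and 13.3 peaks per Mb in the RH30 controls and at 4 and 3.33 in the RH4 lists, and the left flank at 8 and 12 in those controls.

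Few of these peaks away from gene ends were found at the same place again. Merged where they lay within 500 bp of each other, the block's peaks formed 30 places away from gene ends and 8 at gene ends. Of the 30, 26 came from a single list: 13 from sgCtrl1, 12 from sgCtrl2 and 1 from sgCCAAT2a. Of the 16 such sgCtrl1 peaks in the block, 2 (12.5%) overlapped an sgCtrl2 peak, whereas it was 39.4% of 1877 over the whole sgCtrl1 list. Of the 14 sgCtrl2 peaks 2 (14.3%) overlapped an sgCtrl1 peak, near the 19.6% of 3787 over that list. In the block the sgCtrl1 and sgCtrl2 peaks away from gene ends thus lay mostly at different positions. This was so over both whole lists as well, where 39.4% of such sgCtrl1 peaks and 19.6% of such sgCtrl2 peaks overlapped the other control. Of the 5 such peaks with sgCCAAT2a, 4 (80%) were met by one of sgCCAAT2b, near the 80.5% of 965 over the whole sgCCAAT2a list.

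The places that did recur included a site in the gene body of NEMP1, a nuclear envelope protein, which had a peak in 6 of 6 lists at 9.71 kb from the nearest gene end. A site 23.4 kb from B4GALNT1, a ganglioside synthase gene, had a peak in 3 RH30 lists and not with sgCtrl2. A site at 58425729 to 58426090 had a peak in all 4 RH30 lists and in neither RH4 list. Another at 58364917 to 58365114 had one in both edited lists and in none of the other 4. The remaining peaks beyond ATP23 lay in a stretch of 367 kb without a protein-coding gene (57960149 to 58327381) or after it. That stretch held 8 peaks with sgCtrl1, 5 with sgCtrl2, 1 with sgCCAAT2a and 0 in the other 3 lists. The split at this stretch was made after the peaks had been seen.

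These peaks stood late in the RH30 files. Of the 16 sgCtrl1 peaks away from gene ends, 1 was in the first 50% of the file, and the same was true of 1 of 14 with sgCtrl2, 1 of 5 with sgCCAAT2a and 1 of 4 with sgCCAAT2b. At gene ends it was 6 of 7, 6 of 6, 5 of 5 and 5 of 5. The same share over the whole lists is not given here. Late places are therefore not shown to be particular to the block. Several stood in unbroken runs, such as places 4749 to 4752 with sgCtrl2, ordered by position, so that place does not rank single peaks there. With the first 50% of each list alone, the ratio of block to flanks fell to 1.4 with sgCtrl1 and 0.933 with sgCtrl2. It was 1.5 with sgCCAAT2a and 1.33 with sgCCAAT2b, so sgCtrl1 stood between the edited lists and sgCtrl2 below both. Per the file headers, the 4 RH30 calls share a single input directory, S3, whose source is not named, and the part of that input in the density of the block was not tested. Tags numbered 13.9 and 10.5 M in the controls and 21.2 and 28.2 M in the edited libraries, and the part of depth was not tested either. The depth of the RH4 libraries is unknown and their peak caller is not stated. RH4 also lacked the editor, guide, blasticidin and rapamycin of RH30. Cell line, these treatments and calling therefore cannot be told apart.

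**Figure D5:**
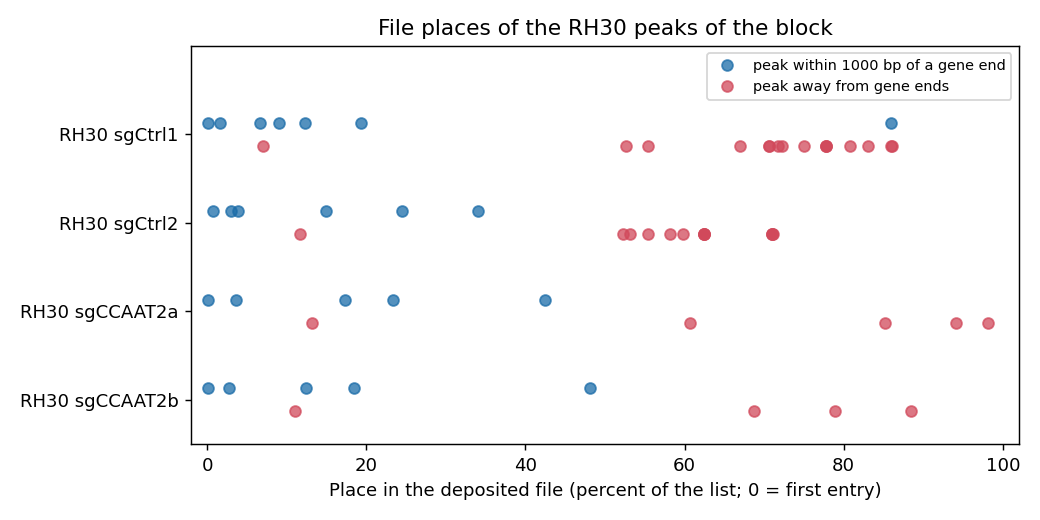
File places of the block's peaks in the 4 RH30 lists, as percent of the list from its first entry, with peaks near gene ends in blue and other peaks in red. Most blue points lie in the first 50% and most red points after it, with 1 red point before it in each list.

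In the authors' deposited tables, 9 of the block's 20 sgCtrl2 peaks were listed over sgCCAAT2a (45%, 23.1 to 68.5%), 9 over sgCCAAT2b and 10 over sgCtrl1 (50%, 27.2 to 72.8%). These intervals hold the shares of the whole list given above, 61.9%, 60.7% and 36.2%, so no difference from the whole list was detectable with 20 peaks. Of the 6 peaks at gene ends, the authors' deposited tables listed 0 over sgCtrl1 and 3 over each edited library, those of CDK4, CTDSP2 and the shared NEMP1 and NAB2 end. Over all sgCtrl2 peaks at gene ends the shares in the authors' deposited tables were 11.8% over sgCtrl1, 57% over sgCCAAT2a and 51.1% over sgCCAAT2b. Of the 14 peaks away from gene ends, the authors' deposited table listed 10 over sgCtrl1 (71.4%, 41.9 to 91.6%), an interval that holds the 54.9% over all such peaks. Over sgCtrl1 the split between gene ends and other peaks was thus also one of the whole list. Over each edited library 6 of the 14 were listed (42.9%, 17.7 to 71.1%), below the 50% at gene ends of the block. Over the whole list such peaks stood above those at gene ends, at 65.6% over sgCCAAT2a and 68.0% over sgCCAAT2b. The interval of 6 of 14 holds both shares.

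Of the 39 genes of the block, members included, 11 had a peak at an end in some list, 3 members and 8 others. By list the share of the 39 was 23.1% with sgCtrl1 and 17.9% in each other list. Over all protein-coding genes it ran from 8.9% with sgCCAAT2a to 16.8% with sgCtrl2. The 8 others follow. DDIT3, a transcription factor of endoplasmic reticulum stress, its overlapping entry LOC128125814 and the neighbouring MBD6 share a peak that was found in 5 lists and not with sgCtrl2. INHBE, a subunit of the activin family, had a peak in the 4 RH30 lists and in neither RH4 list. NEMP1 and NAB2, a corepressor of EGR factors, share a peak of RH4 NFYC and sgCtrl2. DCTN2, a dynactin subunit, had one with sgCtrl1 and in no other list, and CTDSP2 had one in all. GLI1, the transcription factor of hedgehog signalling, had none in any of the 6 lists.

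Of 20 genes that act with CDK4 in the step from G1 to S phase, 8 had a peak for RH4 NFYB, 8 for RH4 NFYC, 7 with sgCtrl1, 7 with sgCtrl2, 4 with sgCCAAT2a and 6 with sgCCAAT2b, and 9 had none in any list. In that order the shares were 40, 40, 35, 35, 20 and 30%. Over all protein-coding genes they were 15, 15.3, 12.6, 16.8, 8.9 and 9.27%. A peak in 6 of 6 lists was found for 4 of the 20, against 7.03% of all protein-coding genes. The list was set by hand, and these differences were not tested. CDC25A, a phosphatase that activates cyclin-dependent kinases, CDKN2D, an inhibitor of CDK4, and the factors E2F1 and E2F3 had a peak in 6 of 6 lists. CCND3, a D-type cyclin, had one in 5 and lacked it with sgCCAAT2a. CDK2, the kinase of the later G1 step, which lies in the left flank on chromosome 12, had one in 4. CCND1, CCND2, CDK6 and RB1 had none. Of 8 further genes of the long arm that are amplified with CDK4 in sarcomas, MDM2 among them, 1 had a peak in any list: LRIG3, with sgCtrl2. That is 12.5% of these genes with sgCtrl2, against 16.8% of all protein-coding genes.

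By peaks within 50 kb of the gene, CDK4 had 2 for RH4 NFYB, 0 for RH4 NFYC, 3 with sgCtrl1, 2 with sgCtrl2, 1 with sgCCAAT2a and 1 with sgCCAAT2b. Nearest to these 6 counts among 19998 genes outside the block were the neighbours GRWD1 and KCNJ14 on chromosome 19, at a Euclidean distance of 1, with 1 NFYC peak as the only difference. ANKRD11, C14orf93 and CHRDL2 followed at 1.41, and 18 genes lay within 1.5. By the ratio of its share of both RH30 control lists to its share of the RH4 NFYB list, the block stood at rank 5, at 2.17, of the 134 windows with at least 10 sgCtrl2 peaks and at least 1 RH4 NFYB peak. A further 3 windows had no RH4 NFYB peak, and no ratio is given for these. The 4 windows above it reached 3.94, 3.48, 2.27 and 2.27 and held 1 or 2 RH4 NFYB peaks, against 6 in the block.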

How the data were processed

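Peak lists of 6 CUT&RUN libraries and 3 differential tables, 9 files in all, were used as deposited; no reads or signal were analysed. The values are peak positions in bp. The score column deposited by the authors holds a constant of 1. HOMER called the RH30 peaks in each library by itself, per the file headers, asking for 2-fold more tags than input, 4-fold more than in the 10000 bp around, and a Poisson p over input of 0.0001. HOMER also made the differential tables, per the file headers, from the sgCtrl2 peaks against another single library, at a fold change above 2.5 and a Poisson p-value below 0.001. For the RH4 lists no caller is named in the files; their entries carry names with coordinates other than their positions, and how the positions were made is not stated. For all libraries the submitters' processing notes name MACS2, HOMER and hg38 without roles.

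The members and lists were chosen with earlier results of these data known. Gene positions and upstream sequences came from RefSeq (GRCh38.p14), whose promoter table held 7 of the 10 genes. Peaks were placed in regions by their centre and overlapped by at least 1 bp, in Python 3.11.15 with scipy 1.17.1; 20 of 20 overlap counts on simulated lists equalled those of bedtools 2.31.1. Intervals are exact Poisson or Clopper-Pearson at 95%. A ratio of densities used the binomial share of the block. Named genes were the members, block genes with a peak, at most 6 genes of a CDK4 pathway list, a list of further 12q genes and the 5 genes nearest to CDK4 in peak counts. GLI1, CCND1, CCND2, CDK6, RB1, B4GALNT1 and ATP23 were named after their values were seen. Alternatives were other windows, flanks, block bounds, list parts and overlaps.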

Additional observations from a re-analysis of the deposited data

How the results depend on the processing

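Of 91 values computed under an alternative, 64 stayed within 1.5 times the count or within the interval of the main value, and 27 did not. Windows of 500 bp, the peak centre in the window and the 5' end alone (7 genes with a strand) left the member counts within that range in all 6 lists, as did flanks of 3 Mb, counting per gene and leaving out the gene-free stretch (added after seeing the data) for the density ratio. The intervals are wide, and some of these ratios still crossed 1. RH4 NFYB went from 0.8 to 1.14 with flanks of 3 Mb and to 1.06 without the stretch. Per gene, sgCCAAT2b went from 1.29 to 0.956. The other ratios under these settings stayed on the same side of 1. A window of 3000 bp gave 5, 5, 5, 4 and 4 members for RH4 NFYB, sgCtrl1, sgCtrl2, sgCCAAT2a and sgCCAAT2b, and the wider entries of RH4 NFYB gave 1. Requiring 50% of both peaks left 0 of 2 member ends shared by the 5 NFYB lists, whose widths differ. At OS9 this could not be met at any position, since the RH4 NFYB peak was 460 bp wide and those of RH30 at most 197 bp. Against the rest of chromosome 12 the density ratio was 3.40, 2.39, 10.9, 5.87, 6.92 and 5.99 in the order RH4 NFYB, RH4 NFYC, sgCtrl1, sgCtrl2, sgCCAAT2a and sgCCAAT2b; the block is gene-dense. Over the interval of the members it was 2.67 for RH4 NFYB. The first 50% of the file gave 1.4 and 0.933 for sgCtrl1 and sgCtrl2, against 1.5 and 1.33 for sgCCAAT2a and sgCCAAT2b. Peaks away from gene ends alone gave 16, 7, 3.33 and 8 in the order sgCtrl1, sgCtrl2, sgCCAAT2a and sgCCAAT2b. These ratios rest on few such peaks in the flanks: 2, 4, 3 and 1 in that order. Within that interval the share away from gene ends was 0% for RH4 NFYB, RH4 NFYC and sgCtrl2 and 33.3% with sgCtrl1, and the share listed over sgCtrl1 was 0%. Of the 6 block peaks shared by both controls, 0% were listed over sgCtrl1 and 16.7% over each edited library, which is the CDK4 peak. The causes of these shifts were not tested. No paired analysis was possible because each group has 1 library.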
